A study of Salmo salar with 51 samples.

Results

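The probes described here are the ribosomal protein probes of a salmon oligonucleotide microarray, followed through the early life of the Atlantic salmon (Salmo salar). They were taken from the study's own lists of probes that changed between neighbouring time points: a probe was a member if its description held the words ribosomal protein, without kinase or mitochondrial, and if it was on the array's table of values. This gave 53 of 43689 probes for 33 genes, with RPL4-A and RPL4-B counted as 1, beside 2838 gene names in the lists at hand. The members were thus chosen by their measured change between time points. Of these, 33 probes (21 genes) stand for proteins of the large ribosomal subunit, 16 probes (10 genes) for proteins of the small subunit, 3 probes for RPL22L1, a paralog of the large-subunit protein L22, and 1 probe for RPS19BP1, which binds the small-subunit protein S19 and is not itself a part of the ribosome. Because a probe had to change somewhere to be listed, ribosomal protein probes that changed in no comparison carry no description here and are not among the members. The list for 2 against 5 dpf was at hand only in part (1999 rows), so members listed only there may be missing, and the counts of members and of those listed for that comparison may be incomplete.

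Whole individuals of the McConnell (Mowi) strain, raised in fresh water at one temperature, were taken as 3 individuals at each of 17 ages, counted in days post fertilization (dpf). These were 2, 5, 10, 15, 20, 25, 30, 35, 41, 47, 53, 59, 65, 71, 77, 83 and 89 dpf, running from the early embryo through hatching, which came before 41 dpf, and yolk sac absorption, which came before 71 dpf. Each of the 51 arrays carried the RNA of 1 individual in Cy5 and a common pool of all time points in Cy3, with no dye swap, and a value here is the log2 ratio of Cy5 to Cy3 after loess normalization within the array, so that 0 means the level of the pool. The pool was made with less material from 2 dpf than from the other stages, and the methods state that RNA of 2, 5 and 10 dpf needed repeated extraction and labelling, which cannot be told apart from the stage itself. All fish came from 1 hatchery source, and parents are not given. Each individual was on 1 array, so the p-values measure the spread between individuals of that source together with that of labelling and arrays. In the main fit this spread was shared over the 17 ages.

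The ribosome is the machine that translates messenger RNA, and its small and large subunits each hold many proteins around a core of ribosomal RNA. The small subunit reads the message and the large subunit joins the amino acids. In fish the egg is stocked with maternal ribosomes, and the embryo starts to transcribe its own genome during the blastula stages. Transcripts of ribosomal proteins are usually abundant in growing tissue and are often regulated together. In whole-body RNA, fewer cells of a type and less RNA per cell cannot be told apart.

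Array brightness varied, with median Cy5 signals of 124.5 to 601 per array, and the 14 slides fell into a brighter set (slides 1 to 6, from 304.5) and a dimmer set (slides 7 to 14, up to 323.5). The 2 dpf arrays were all on slides 12 to 14 and the 10 dpf arrays on slides 3 and 5. The study's lists of changed probes also held 4 probes described with zona pellucida, the egg envelope, and 6 hemoglobin probes, markers of red blood cells. ZP2 and ZP3 are named as sperm-binding proteins, and the others only by a zona pellucida-like domain. The zona pellucida probes had a median log2 ratio of 3.52 at 2 dpf (range -2.93 to 4.02) and -1.12 at 89 dpf, with 1 low at 2 dpf. The hemoglobin probes had -2.95 at 10 dpf (range -5.82 to 1.33) and 0.30 at 20 dpf. All were listed for a change on these same arrays, so the values are a description and no check of the stage labels. Of the 53 members, 41 had no flagged spot on any array, and flagged spots (17 of 2703) were left out.

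The members were lowest at 2 dpf, rose to 5 dpf and again to 10 dpf, and then stayed near the level of the pool. The median over the 53 probes was -3.18 at 2 dpf, -1.42 at 5 dpf and 0.04 at 10 dpf. It lay between -0.37 (77 dpf) and 0.02 (30 dpf) at every later time point. On single arrays the median of the members was -2.91, -3.14 and -3.18 at 2 dpf, -1.46, -1.48 and -1.42 at 5 dpf, and 0.03, -0.01 and 0.04 at 10 dpf. The arrays of these 3 time points did not overlap. Taken one by one, 41 of 48 members unflagged on all 6 arrays had every 5 dpf value above every 2 dpf value, beside 24.8% of all probes, and 35 of 47 had every 10 dpf value above every 5 dpf value, beside 24%. The large-subunit probes had medians of -3.18, -1.36 and 0.11 at the 3 time points, and the small-subunit probes had -3.10, -1.48 and -0.21. Of the members, 47 of 53 had their lowest mean at 2 dpf, beside 25.8% of all probes tested. These early values chose most of the members (25 were listed for 2 against 5 dpf and 31 for 5 against 10 dpf, with 9 listed for more than 1 comparison), so they are given as a description with no test.

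**Figure D1:**
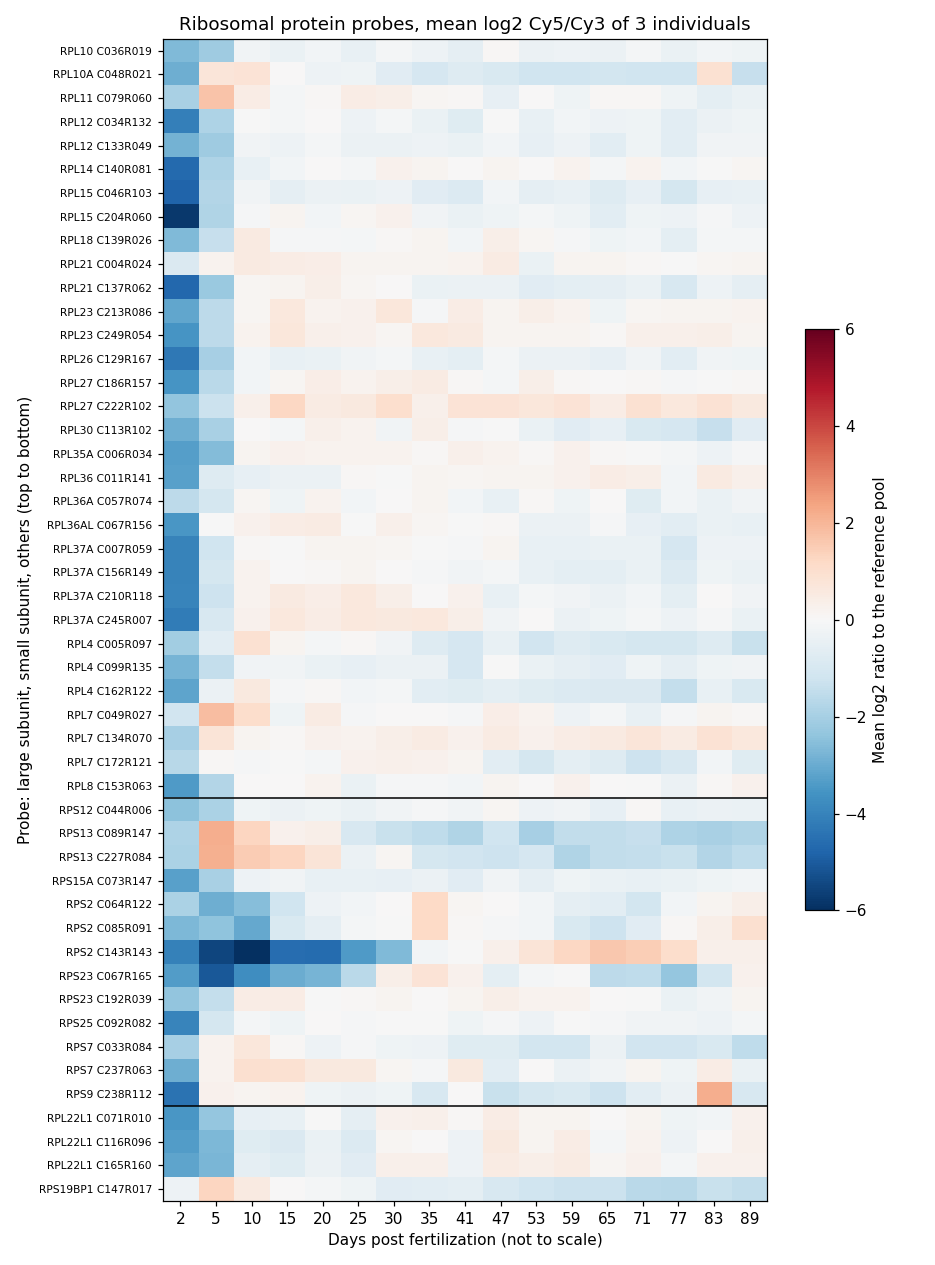
Mean log2 ratio to the reference pool (colour) of 49 ribosomal protein probes (rows: large subunit, small subunit, then RPL22L1 and RPS19BP1) at the 17 time points (columns, in days post fertilization, not to scale), each the mean of up to 3 individuals. Most rows are blue at 2 and 5 dpf and pale from 10 dpf on. The 3 RPS2 probes and RPS23 C067R165 stay blue past 10 dpf, and the 2 RPS13 probes are red at 5 and 10 dpf.

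The size of the rise depended on how the arrays were scaled, while its direction did not. Most members were listed for changes in these steps, so the direction was largely set by that choice. The median difference from 2 to 5 dpf was 2.02 with loess and 2.85 with median centring of each array. Median centring moved the median of all probes from -0.10 to 0.43. On a shared slide, 1 array at 2 dpf and 2 arrays at 5 dpf gave 2.03, with 46 of 51 members above 0. The median over all probes tested was -0.07 there, and the share of all probes above 0 was not counted. From 5 to 10 dpf the median difference was 1.31 with loess, 0.88 when Cy5 was used without its ratio, and 1.45 with median centring. After 10 dpf the scaling mattered more: the highest mean lay at 10 dpf for 7 members with loess and for 32 with median centring, and the median difference from 10 to 15 dpf was -0.07 with loess and -0.61 with median centring, while the median of all probes moved by 0.09 and -0.25. Whether the members were level or fell after 10 dpf is therefore not settled by these arrays.

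**Figure D2:**
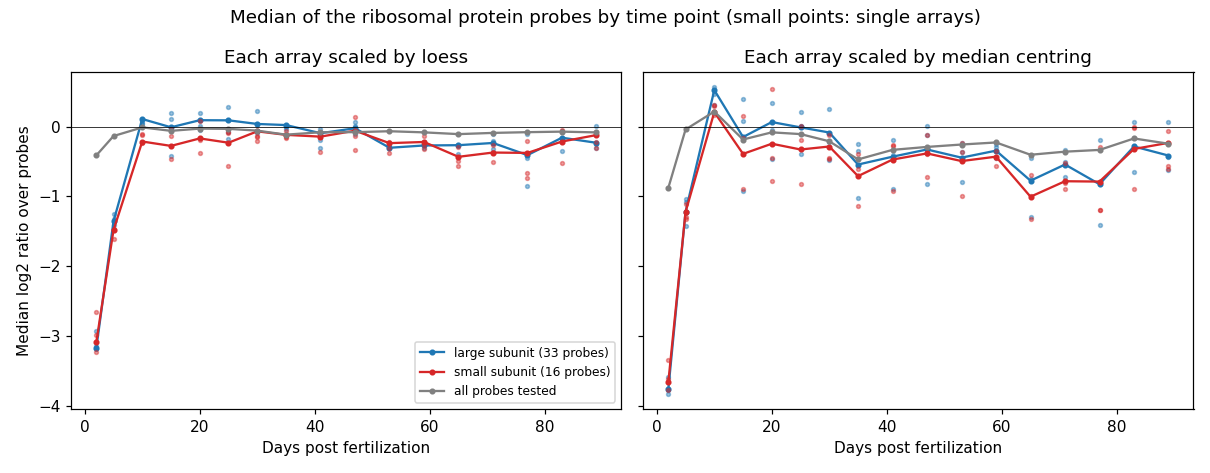
Median log2 ratio over the large-subunit (33 probes) and small-subunit (16 probes) members and over all probes tested, against days post fertilization, with each array scaled by loess (left) or by its median (right). Lines join medians of the time point means, and small points are medians of single arrays. Both scalings show the rise from 2 to 10 dpf, and a drop after 10 dpf is seen with median centring.

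At 2 dpf most members were too dim to be measured, so their rise is a lower bound. Below a Cy5 signal of 500, the limit that the study's methods set, lay 47 of 53 members on all 3 arrays at 2 dpf, 4 at 5 dpf and 1 at 10 dpf, beside 54.5%, 20.6% and 9.50% of all probes tested. At or above 500 on all 3 arrays were 2 members at 2 dpf, 42 at 5 dpf and 49 at 10 dpf. For the 43 members that were dim at 2 dpf only, 29 allowed a bound of at least 1.04-fold to at least 14.4-fold higher at 5 dpf. The median over those 29 was at least 3.40-fold. The bound of the others was under 1, and they are left out of that median, so it does not describe all 43. These bounds compare normalized Cy5 means with, on each dim array, the higher of the probe's own value and the lowest signal among probes above 500, and they are open to dye bias because no dye swap was made.

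**Figure D3:**
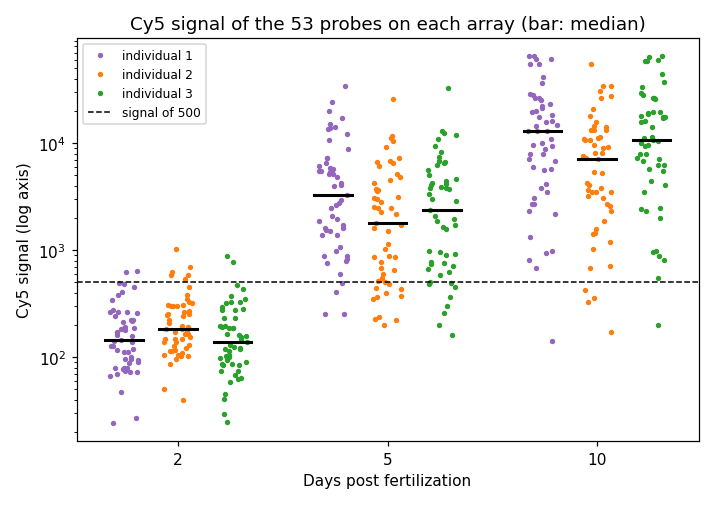
Cy5 signal (log axis) of the 53 ribosomal protein probes on each of the 9 arrays at 2, 5 and 10 dpf, with 1 point per probe, a colour per individual and a bar at the median of the array. The dashed line is the signal of 500: 47 probes lie under it on all 3 arrays at 2 dpf, and 1 does so at 10 dpf. Signals are not scaled between arrays.

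A difference was called where the limma adjusted p was below 0.05 and the level at least doubled or halved (a fold of 2). Among the 52 members that passed the filter on dim probes, 40 were called higher at 5 than at 2 dpf and 3 lower, beside 39.8% of 20911 probes called in either direction (20% higher and 19.8% lower). From 5 to 10 dpf 32 were higher and 0 lower, beside 20.3% of 20686 probes (11.9% higher and 8.47% lower). In that step 39 of the 52 members had an unadjusted p under 0.05, beside 7409 of the 20686 probes. The 1 member that did not pass the filter was RPL36A C057R074, with Cy5 signals of 40.0 to 94.0 at 2 dpf and 360 to 944 at 10 dpf. Median centring changed the split of all calls from 2 to 5 dpf from 50.2% to 82.7% higher. Since the members were chosen on these contrasts, the counts are not evidence about them. The members nearest the limit of the lists had differences of 1.07 (RPL21 C004R024, 2 to 5 dpf) and 0.92 (RPS25 C092R082, 5 to 10 dpf); values just outside it cannot be given, since unlisted probes are not named.

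Most large-subunit proteins had the common course, and RPL15 and RPL26, listed for both early steps, show it. RPL15, which lies deep in the large subunit, was read by 2 probes. Probe C046R103 had log2 ratios of -4.93, -5.02 and -4.41 at 2 dpf, -1.68, -1.85 and -1.78 at 5 dpf, and -0.20, -0.28 and -0.19 at 10 dpf. Its Cy5 signal was 222.5 to 321 at 2 dpf and 33934 to 58965 at 10 dpf, and no array of one time point overlapped another. Probe C204R060 went from a mean of -5.79 ± 0.45 (SD, n = 3) at 2 dpf to -1.82 ± 0.30 (n = 3) at 5 dpf. The bounds of the first step were at least 7.66-fold and at least 7.63-fold for the 2 probes. RPL26, which sits near the exit of the peptide tunnel, rose likewise: C129R167 had -4.38, -4.13 and -4.37 at 2 dpf, -1.71, -2.35 and -1.95 at 5 dpf, and -0.23, -0.22 and -0.11 at 10 dpf. RPL37A, a zinc-binding protein of the large subunit, had 4 probes with means of -3.97 to -4.19 at 2 dpf and 0.05 to 0.26 at 10 dpf. RPL4 C005R097 had -2.02, -2.32 and -1.99 at 2 dpf, -0.34, -0.97 and -0.60 at 5 dpf, and 1.30, 0.57 and 0.89 at 10 dpf, so that it ended above the pool in all 3 individuals. C005R097 is described as L4-B. The other RPL4 probes, C099R135 and C162R122, are described as L4-A and had means of -1.43 and -0.36 at 5 dpf and -0.22 and 0.59 at 10 dpf.

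The paired probes of RPL12, RPL23 and RPL27, all of the large subunit, had means of -4.10 to -2.36 at 2 dpf, -2.15 to -1.29 at 5 dpf and -0.20 to 0.32 at 10 dpf. RPL8, RPL14, RPL18, RPL30 and RPL36, with 1 probe each, had means of -4.68 to -2.63, then -1.96 to -0.79, then -0.49 to 0.53. The small-subunit protein RPS12 had -2.44 at 2 dpf, -1.91 at 5 dpf and -0.27 at 10 dpf. The means of all these probes were higher at each step, and at 10 dpf they lay near the level of the pool.

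Several large-subunit probes were still low at 5 dpf. RPL35A C006R034 had the largest difference from 5 to 10 dpf among members unflagged on all arrays, from -2.92, -2.32 and -2.51 to 0.29, 0.21 and 0.01, a difference of 2.75 (SE 0.31). RPL21 C137R062 went from a mean of -2.22 ± 0.20 at 5 dpf to 0.12 ± 0.09 at 10 dpf (SD, n = 3). The other RPL21 probe, C004R024, was dim at 2 dpf, with signals of 99.5 to 164 at 2 dpf and 714.5 to 1314 at 10 dpf, and it moved by 0.37 in that step. RPL10, which is among the last proteins to join the large subunit, went from -2.11 ± 0.12 at 5 dpf to -0.19 ± 0.12 at 10 dpf. The 3 RPL22L1 probes had means of -2.72 to -2.31 at 5 dpf and -0.74 to -0.48 at 10 dpf.

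A smaller set was near or above the level of the pool by 5 dpf, and RPL7 and RPL11 had lower means at 10 dpf. RPL36AL, a copy of the large-subunit protein L36a, had -3.59, -3.75 and -3.10 at 2 dpf and -0.04, -0.05 and 0.05 at 5 dpf; its signal was above 500 on all 3 arrays of 2 dpf, and its difference was 3.47 (SE 0.25). It was flagged on 4 arrays, on 3 of them at a signal of 60000 or more, near the top of the scanner's range. The 3 probes of RPL7 had means of 1.86, 0.76 and 0.07 at 5 dpf and 1.07, 0.16 and -0.07 at 10 dpf. One of them, C049R027, was under a signal of 500 on all arrays at 20, 41 and 71 dpf. RPL11, which also binds the p53 regulator MDM2 in mammals, had 1.71 and 1.69 on the 2 unflagged arrays at 5 dpf and 0.66, 0.02 and 0.65 at 10 dpf. It was listed for the second step, where its means differed by -1.26 (n = 2 and 3), a description with no test.

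Among the small-subunit proteins, RPS25, which helps some viral and cellular messages to recruit the ribosome, had -3.80, -4.15 and -3.88 at 2 dpf, -1.16, -0.93 and -1.03 at 5 dpf, and -0.12, -0.10 and -0.13 at 10 dpf. RPS15A C073R147 had means of -3.27 ± 0.12, -1.93 ± 0.20 and -0.29 ± 0.21 at the 3 time points (SD, n = 3). RPS7 C033R084 had -1.79, -2.26 and -1.95 at 2 dpf, and the other RPS7 probe had a mean of -2.92; both were near the pool at 5 dpf (means 0.20 and 0.21) and above it at 10 dpf (0.66 and 0.97). RPS9, a protein at the entry of the messenger RNA channel, was dim at 2 dpf. Its probe C238R112 was at 0.16 at 10 dpf, and from 2 to 5 dpf it went from -4.10, -4.22 and -4.93 to 0.36, 0.11 and 0.36, at least 6.98-fold. RPS9 was listed for that step and for 83 against 89 dpf. RPL10A, the large-subunit protein listed with it for 83 against 89 dpf, had -2.95, -1.75 and -4.13 at 2 dpf, 0.48, 1.06 and 0.69 at 5 dpf, and 0.79, 0.63 and 1.06 at 10 dpf.

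RPS13 went above the pool and then fell. Probe C089R147 had -2.03, -2.12 and -1.38 at 2 dpf, 2.07, 2.25 and 2.16 at 5 dpf, and 1.58, 1.83 and 0.48 at 10 dpf. Probe C227R084 had -1.68, -2.05 and -2.02, then 2.09, 2.00 and 2.28, then 1.97, 2.20 and 0.38. All 5 dpf arrays stood above all 2 dpf arrays for both probes, and the bounds were at least 13.4-fold and at least 14.4-fold. At 20 dpf the probes had means of 0.37 ± 0.24 and 0.77 ± 0.57, and at 89 dpf of -1.78 ± 0.28 and -1.54 ± 0.36 (SD, n = 3).

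RPS19BP1, a nucleolar protein that in mammals also activates the deacetylase SIRT1, had a course of the same kind. Its probe had -0.47, -0.17 and -0.26 at 2 dpf, with signals of 629.5 to 1036, and 1.41, 0.92 and 1.56 at 5 dpf. It was at 0.56 ± 0.04 at 10 dpf, -0.13 ± 0.12 at 20 dpf, -0.57 ± 0.19 at 41 dpf and -1.60 ± 0.15 at 71 dpf (SD, n = 3). The 3 individuals of 71 dpf were all below those of 41 dpf.

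RPS2, which lies beside the messenger RNA channel, did not follow the common course on any of its 3 probes. C143R143 had its lowest mean at 10 dpf, with -6.69, -4.80 and -6.43 and signals of 142 to 202, and was under 500 on all arrays up to 20 dpf. It was at -2.67 ± 0.42 at 30 dpf, -0.16 ± 0.12 at 35 dpf, -0.03 ± 0.22 at 41 dpf and 1.62 ± 0.17 at 65 dpf (SD, n = 3), where its signal was 8554 to 17000. The other probes, C064R122 and C085R091, were at -2.54 ± 0.14 and -3.06 ± 0.37 at 10 dpf, -1.17 ± 0.03 and -0.91 ± 0.14 at 15 dpf, 1.18 ± 0.10 and 1.20 ± 0.89 at 35 dpf, and -0.63 ± 0.29 and -1.25 ± 0.40 at 65 dpf. At 65 dpf C143R143 was thus above the pool in all 3 individuals while the other probes were below it in all 3.

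The probes of RPS23, a protein of the decoding centre, also parted. C192R039 followed the common course, with -1.48, -1.50 and -1.27 at 5 dpf and 0.10, 0.64 and 0.54 at 10 dpf. C067R165 had -4.22, -5.56 and -5.49 at 5 dpf, -4.08, -3.26 and -3.85 at 10 dpf, and -2.60, -1.92 and -3.90 at 20 dpf. It reached 0.56, 0.38 and 0.14 at 30 dpf, and its individuals were spread at 89 dpf, with 1.98, -0.10 and -1.16. The probe pair had a Pearson r of 0.52 over the 17 time point means and -0.01 over the 15 from 10 to 89 dpf.

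Over the 27 pairs of probes that share a gene name (14 genes, 34 probes), r over the 17 means had a median of 0.95 and was above 0.9 for 16 pairs, and over the 15 means from 10 dpf on the median was 0.64. RPL4-A and RPL4-B, told apart in the descriptions, count as 1 name here. These r values are descriptions across time points on the same arrays and reference pool. The lowest r was 0.39, between RPL7 C134R070 and C172R121, and the highest was 0.99, between RPL22L1 C116R096 and C165R160. Probes of 1 name may read different gene copies or overlap in sequence, which was not examined because the probe sequences were not used here.

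**Figure D4:**
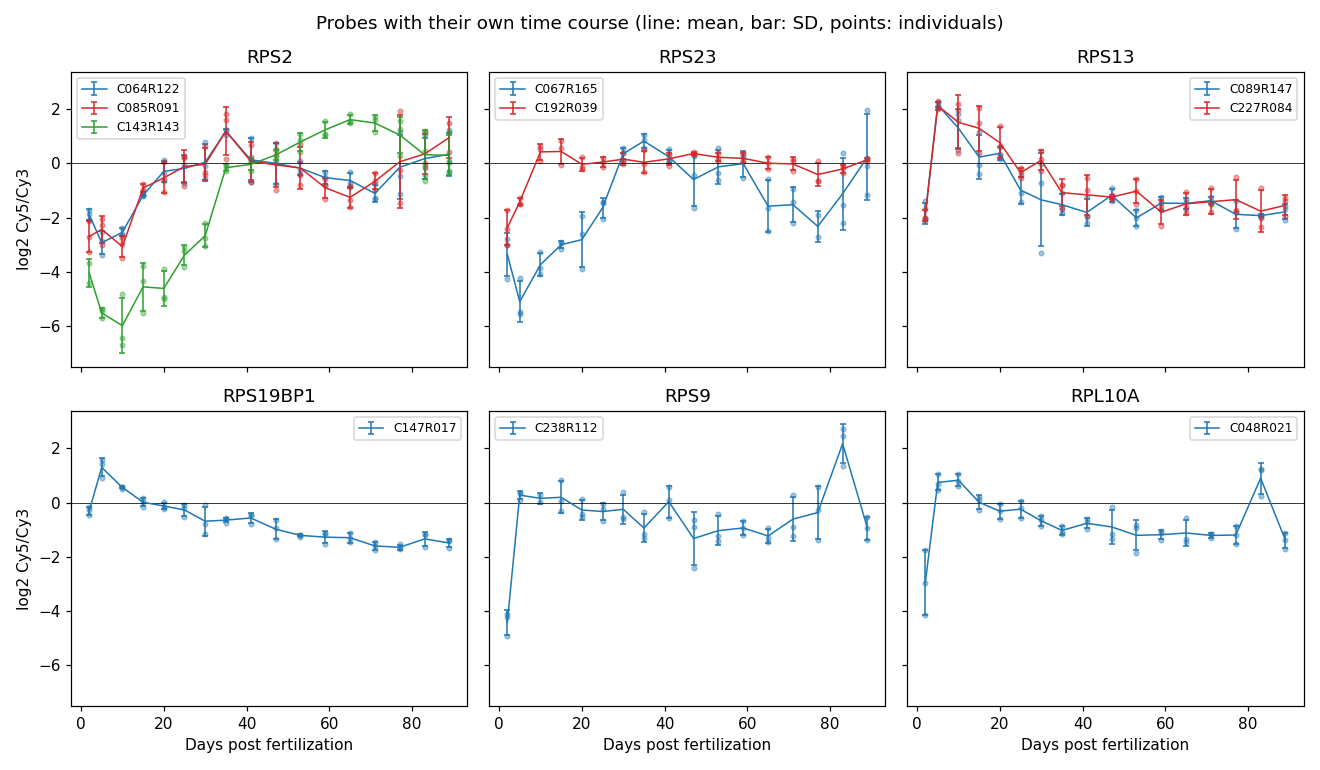
log2 Cy5/Cy3 against days post fertilization for the probes of RPS2, RPS23, RPS13, RPS19BP1, RPS9 and RPL10A, with the mean (line), SD (bar) and individuals (points, 3 per time point or fewer where a spot was flagged). RPS2 C143R143 climbs from levels under a signal of 500 up to 20 dpf to 1.62 at 65 dpf, both RPS13 probes fall after 5 dpf, and RPS9 and RPL10A stand out at 83 dpf.

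From 15 dpf on, few members were called between neighbouring time points. A member was tested only where neither time point had been used to list it, and 2 and 5 dpf count as used for all of them. In the 13 comparisons from 15 against 20 dpf to 83 against 89 dpf, 664 such tests gave 0 calls with limma, and 38 had an unadjusted p under 0.05 (5.72%), beside 0.366% called and 7.60% with an unadjusted p under 0.05 among 271670 tests over all probes. The count of 0 follows in part from that exclusion, which was not made for all probes: with every member kept, RPS2 C143R143 passed from 30 to 35 dpf, and RPS9 and RPL10A passed from 77 to 83 and from 83 to 89 dpf. From 10 to 15 dpf, 1 of 20 members was called, RPS2 C143R143, which was higher (limma adjusted p = 0.0218), beside 11.9% of 20690 probes (9.31% higher and 2.64% lower). It was under 500 on all 6 arrays, so neither level was measured and no size is given. The call was lost when any 1 individual per time point was left out, with adjusted p of 0.0545 to 0.301, and with median centring 3 members were called lower in its place. The lowest differences, of RPL7 C049R027 (-1.31), RPS13 C089R147 (-1.06) and RPL10A (-0.81), had limma adjusted p of 0.109 to 0.14. The split of all calls in that comparison was 77.9% higher with loess and 41.2% with median centring.

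Over longer spans a few members moved. From 20 to 41 dpf, 4 of 52 members were called, 2 higher and 2 lower, beside 11.2% of 20946 probes (8.29% higher and 2.95% lower). RPS2 C143R143 went from -3.88, -4.93 and -5.01 to -0.29, 0.10 and 0.09, at least 15.8-fold higher (limma adjusted p = 3.6e-10). RPS23 C067R165 went from a mean of -2.81 ± 1.01 to 0.25 ± 0.24 (SD, n = 3), a difference of 3.06 (SE 0.60, limma adjusted p = 0.000243). Both probes were listed for a comparison that lies inside this span, so their direction was known from other samples of the series. RPS13 C089R147 went from 0.62, 0.15 and 0.34 to -2.18, -1.25 and -1.99 (difference -2.18, SE 0.45, limma adjusted p = 0.000483). RPS13 C227R084 differed by -1.92 (SE 0.43, limma adjusted p = 0.0013), and by -1.59 with an adjusted p of 0.0563 without replicate 3 of every time point. RPL4 C005R097, with -0.89 (limma adjusted p = 0.126), and RPS2 C085R091, with 0.61 (0.548), did not pass the test. Median centring gave 59.5% of all calls higher in this span, against 73.8% with loess.

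From 41 to 71 dpf, 2 of 52 members were called, beside 5.21% of 20936 probes, and both calls were close to the limits. RPS19BP1 differed by -1.03 (SE 0.22, limma adjusted p = 0.00267). Its fold went under the limit without the individuals 2 or 3 of 41 dpf (-0.98 and -0.97) or individual 3 of 71 dpf (-0.96), with adjusted p of 0.0147 to 0.0213. RPS2 C143R143 differed by 1.52 (SE 0.43, limma adjusted p = 0.027), and without individuals 1 or 2 of 41 dpf or 2 or 3 of 71 dpf the adjusted p was 0.0624 to 0.1005. Neither was called with median centring, with adjusted p of 0.0814 and 0.0686. The lowest differences among the members, of RPS23 C067R165 (-1.77), RPL7 C172R121 (-1.39) and RPS2 C064R122 (-1.24), had limma adjusted p of 0.0669 to 0.0842. The share of all calls that was higher was 57.3% with loess and 70.2% with median centring. From 71 to 89 dpf, 0 of 50 members were called with limma, beside 0.129% of 20891 probes. In this span 4 of the 50 had an unadjusted p under 0.05, beside 1499 of the 20891 probes. The highest and lowest differences there were 1.76 (RPS23 C067R165) and -1.19 (RPS2 C143R143), with limma adjusted p of 0.414 and 0.474.

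From 20 to 89 dpf, 7 of 50 members were called, 2 higher and 5 lower, beside 25.8% of 20893 probes (14.6% higher and 11.2% lower). The 2 that were higher were RPS2 C143R143, at least 16.4-fold (limma adjusted p = 1.2e-11), and RPS23 C067R165, by 3.05 (SE 0.60, limma adjusted p = 0.000102). Both were listed for a comparison inside this span too, so their direction is not independent, and the RPS23 call was lost with the methods' t-test, adjusted or not. RPS13 was lower on both probes, by -2.16 (SE 0.45) and -2.31 (SE 0.43), with limma adjusted p of 0.000226 and 4.7e-05. RPS19BP1 went from -0.17, -0.22 and 0.01 to -1.42, -1.37 and -1.67 (difference -1.36, SE 0.22, limma adjusted p = 5.2e-06). The individuals of 20 and 89 dpf did not overlap for any of these 5 probes, which were picked by their calls. The same held for many members that were not called, such as RPL30, RPL21 C137R062 and the RPL22L1 probes, so it does not set these 5 apart. The share over all probes was not counted for this span.

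The other calls of this span were each lost without 1 array. RPL4, whose loop lines the peptide tunnel, went on probe C005R097 from -0.20, -1.24 and 1.06 to -1.23, -1.67 and -1.05, so that the groups overlapped (difference -1.19, SE 0.38, limma adjusted p = 0.0139). Without individual 3 of 20 dpf it differed by -0.60 (adjusted p = 0.245), and without individual 2 of 89 dpf by -1.02 (adjusted p = 0.0709). RPS7 C033R084, a small-subunit protein, was under 500 on all 89 dpf arrays and at least 1.61-fold lower (limma adjusted p = 0.00515), and without individual 3 of 20 dpf it differed by -0.92 (adjusted p = 0.0599). That individual was on a slide of the brighter set, and the other individuals of 20 dpf were on slides of the dimmer set. The array medians of these sets overlapped. With slide as a fixed block the RPL4 call was lost and the RPS7 call was kept. The cause was not tested.

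**Figure D5:**
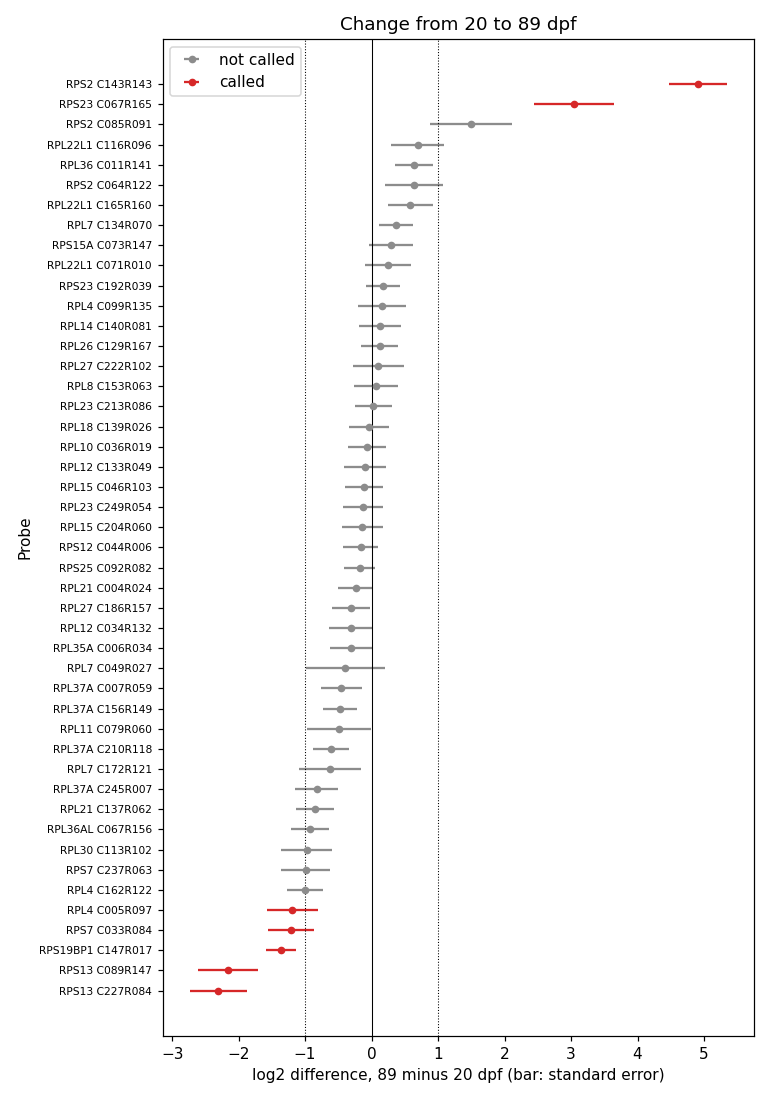
log2 difference of 89 minus 20 dpf (points) with its standard error (bars) for 46 of the 50 ribosomal protein probes that could be tested in this span, in order of the difference. Red points are the 7 called probes, dotted lines mark a fold change of 2, and RPS2 C143R143, under a signal of 500 at 20 dpf and so only bounded, lies far to the right of the others.

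An F test over the 13 time points from 20 to 89 dpf called 16 of 48 members (limma adjusted p under 0.05), beside 39.9% of 20746 probes. Among them were both RPS13 probes, RPS19BP1, RPL30 and 3 of the 4 RPL37A probes. The count was 8, 5 and 6 when 1 individual was left out at every time point. The range of the time point means from 20 to 89 dpf had a median of 0.95 over the members and 1.24 over all probes tested, and of 1.17 and 1.23 with Cy5 alone.

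RPS9 and RPL10A, a large-subunit protein near the exit site for transfer RNA, stood apart at 83 dpf, and both were listed for 83 against 89 dpf. RPS9 was also listed for 2 against 5 dpf. RPS9 had -0.28, 0.57 and -1.39 at 77 dpf, 2.70, 2.45 and 1.36 at 83 dpf, and -0.53, -1.38 and -0.92 at 89 dpf. RPL10A had -1.19, -1.53 and -0.87, then 1.20, 1.25 and 0.24, then -1.36, -1.70 and -1.12. Since 83 and 89 dpf were used to choose both probes, the values are a description with no test. For both probes all 3 individuals of 83 dpf stood above those of the neighbouring time points, on 3 different slides (3, 6 and 8). With slide as a fixed block the differences from 77 to 83 dpf were 1.85 for RPS9 and 2.04 for RPL10A, against 2.54 and 2.09 without it. Under that block neither probe passed the limits of a call from 77 to 83 dpf. Both did from 83 to 89 dpf, but those arrays chose the probes, so this is no support. Without replicate 2 of every time point, neither probe passed in either step. Without replicate 1, RPL10A passed in neither step, and RPS9 did not pass from 77 to 83 dpf. The other 50 members had 0 calls from 77 to 83 dpf and 0 from 83 to 89 dpf with limma, beside 0.56% and 0.943% of all probes. Of these members, 6 and 2 had an unadjusted p under 0.05, beside 2094 of 20899 and 1843 of 20883 probes.

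Other genes of protein synthesis, also taken from the study's lists of changed probes, are set beside the members as a description. The counts are of calls, and the remaining probes were not called. Of all probes, 20% were called higher and 19.8% lower from 2 to 5 dpf, and 11.9% and 8.47% from 5 to 10 dpf. Of 39 tested probes for mitochondrial ribosomal proteins, which build the separate ribosome of the mitochondrion, 22 were called higher and 5 lower at 5 than at 2 dpf (median 1.18). At 10 against 5 dpf, 10 were called higher and 5 lower (median 0.18). Of 68 probes for translation factors, which bring messages and transfer RNAs to the ribosome, 50 were called higher and 2 lower in the first step (median 1.95). In the second, 17 were called higher and 5 lower (median 0.52). Of 43 probes for ribosome biogenesis factors, which process ribosomal RNA and assemble the subunits, 37 were called higher and 1 lower in the first step (median 2.08). In the second, 0 were called higher and 5 lower (median -0.59). The median of the biogenesis probes was 1.32 at 5 dpf and 0.72 at 10 dpf, while that of the ribosomal protein probes was -1.42 and 0.04. Most biogenesis probes were listed for 2 against 5 dpf. Of the ribosomal protein probes, 25 were listed for that step and 31 for 5 against 10 dpf. The lists were thus chosen largely on different steps, and their timing cannot be compared from these values. From 20 to 89 dpf the biogenesis probes had 1 called higher and 14 lower (median -0.81), and the translation factors 1 higher and 9 lower (median -0.52). The mitochondrial ribosomal proteins had 0 called higher and 2 lower (median -0.19). The shares called lower were 32.6%, 13.2% and 5.13%, beside 11.2% of all probes, of which 14.6% were called higher. The ribosomal protein members had a median of -0.12 in that span, beside -0.14 for all probes tested.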

How the data were processed

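RNA of 51 whole salmon individuals (17 time points, 3 each) was hybridised by the authors against a common pool on two-colour 44K arrays. The authors deposited Cy5 and Cy3 spot intensity values with flags per the file headers (Imagene), whose background correction is not given in the sources used here, and a table of Lowess-normalized log2 ratios, which the authors centred on each probe's median over all samples. No further column of per-sample values was left unused. Here intensities under 1 were set to 1, flagged spots were left out, and log2 ratios were normalized by loess within arrays with limma 3.58.1 in R 4.3.3. A probe was kept if, at some age, its Cy5 signal reached 500 with no flag in the 3 individuals (20964 of 43689). A single limma fit over the 51 arrays estimated each age's mean and the differences, and a call needed a Benjamini-Hochberg adjusted p under 0.05 over all probes tested and a fold of at least 2. The procedure was tested on simulated data. The deposited log2 table, other scalings, filters, slide blocks, left-out individuals and the methods' test were alternatives. Where all 3 arrays of a probe were under 500 at one time point, its change was given as a bound where one could be set. Ratios, SDs and differences printed for such probes, and medians that include them, rest on signals under that limit. They are descriptions and no measured levels. Precision is limited by the number of arrays, 3 per time point.

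Full values are given for members listed for more than 1 comparison or late, for genes with several probes where they differ, and for RPS19BP1. They are also given for many, but not all, of the 3 largest rises and falls per early step and span. RPL11, RPL10, RPL36AL and RPL30 were added after their values were seen. The members and lists were chosen with earlier results of these data known. Of the list for 2 against 5 dpf, 1999 rows were at hand, so 2 and 5 dpf were treated as used for every member. A few members enter the counts and medians but are not reported here by name.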

Additional observations from a re-analysis of the deposited data

How the results depend on the processing

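The rise over the first 2 steps kept its direction under all alternatives run. Most members were listed for a change in these steps on the same arrays. The direction was thus largely set by that choice, and its persistence is no support. The median member difference from 2 to 5 dpf was 2.02, and 2.85 with median centring, 2.56 with the Cy5 channel alone, 2.20 with the authors' deposited values and 1.74 to 2.17 when 1 individual per time point was left out. From 5 to 10 dpf it was 1.31, and 1.45 with median centring, 0.88 with Cy5 alone, 1.44 with the deposited values, 1.46 with flagged spots kept, 1.47 with saturated spots kept, 1.26 with no filter on dim probes, 1.28 and 1.07 with slide as a random and a fixed block, and 1.34 to 1.37 without 1 individual per time point. From 10 to 15 dpf it was -0.07, and -0.61 with median centring, 0.079 with slide as a fixed block, and -0.22 to 0.12 without 1 individual per time point. The cause of these moves was not tested.

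The single call between neighbouring time points, counted from 10 against 15 dpf on, covers only members for which neither time point was used for listing. It became 7 with an unadjusted p of at most 0.01, 3 with median centring, and 0 with Cy5 alone or with no dim filter. It was also 0 with the methods' t-test (adjusted or not) and with slide as a fixed block, and 0 to 1 without 1 individual per time point. From 20 to 41 dpf the 4 calls became 2 with the methods' t-test and 0 after its adjustment. From 41 to 71 dpf the 2 calls became 5 with the unadjusted p, 0 with median centring and with Cy5 alone, 1 with no dim filter, 0 with the adjusted t-test, 4 with slide as a random block, and 0 to 2 with arrays left out. From 71 to 89 dpf 0 became 3 with the unadjusted p. From 20 to 89 dpf the 7 calls became 13 with no minimum fold, 13 with Cy5 alone, 4 and 0 with the t-test before and after adjustment, and 6 to 11 with arrays left out (11 without individual 3 of 89 dpf). The F test's 16 became 10 with slide as a fixed block and 5 to 16 with arrays left out. Over the 14 single probe calls, 263 of 316 alternative values kept the call, 53 lost it and 0 changed sign. The kept values include settings that could not lose a call, such as no minimum fold and scaling of the average signal. The count of kept values therefore overstates how firm the calls were. Scaling the average signal between arrays leaves the ratios as they are, and a filter of 500 on all 51 arrays left no member to test.

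No source says that a replicate number marks shared individuals, and the numbers were not taken as pairs: deviations from the time point means correlated with a median r of 0.02 (lowest -0.27) for the same number and -0.01 for different numbers, though 31 of 51 arrays correlated best with one of their own number, where 17 would if the numbers were unrelated. With the replicate block the calls were 2 among neighbouring time points, 4, 3, 0 and 7 over the spans from 20 to 41, 41 to 71, 71 to 89 and 20 to 89 dpf, and 17 in the F test. Signals under 500 limit what can be said of 2 dpf.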
